A study of Homo sapiens with 4 samples.

Results

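The 4 HOX clusters were examined for the borders of the chromatin domains that hold or adjoin them in H1 cells, an embryonic stem cell line widely used as human pluripotent stem cells (hPSCs). All intervals within 1.5 Mb of HOXA on chromosome 7 (27090000 to 27210000), HOXB on chromosome 17 (48530000 to 48730000), HOXC on chromosome 12 (53940000 to 54060000) and HOXD on chromosome 2 (176090000 to 176190000) were taken from every library (build hg38). This gave 103 intervals of 19238 in the 4 libraries together: 22 of 5036 in shLUC replicate 1, 28 of 5039 in shLUC replicate 2, 30 of 4939 in shHNRNPU replicate 1 and 23 of 4224 in shHNRNPU replicate 2. No gap lay in these windows, so each interval was either a domain, a stretch of chromosome that mostly contacts itself, or a boundary region between domains.

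Hi-C ligates and sequences DNA fragments that were close together in the nucleus, here after formaldehyde crosslinking and HindIII digestion. A lentivirus delivered a short hairpin RNA that targets either HNRNPU, a nuclear RNA-binding protein (shHNRNPU, n = 2), or luciferase, a reporter enzyme not found in these cells, as the control (shLUC, n = 2), and both groups were selected with puromycin. The labels number the libraries of a group but do not say whether they came from separate cultures, so the p-values measure only the spread between these libraries. The lists hold no contact counts or expression, so depth, the level of HNRNPU, HOX expression and the cell type could not be checked.

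HOX genes encode homeodomain transcription factors that give cells their position along the body axis. Their order along the chromosome follows the order in which they act, from the anterior group 1 genes to the posterior group 13 genes. In pluripotent cells the clusters are mostly silent under Polycomb repression, and at HOXA and HOXD the domains on either side hold enhancers for different tissues of the embryo, with the binding sites of the insulator protein CTCF lying between HOX genes. The annotation (RefSeq, GRCh38.p14) listed 39 protein-coding HOX genes: 11 in HOXA and 10 in HOXB, transcribed from the minus strand, and 9 each in HOXC and HOXD, transcribed from the plus strand. Group 13 is therefore at the high-coordinate end of HOXA and HOXB and at the low-coordinate end of HOXC and HOXD.

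Taking for each terminal HOX gene the library with the closest border, borders came nearest at HOXA13, HOXD13 and HOXB1. For HOXB1 this held only in replicate 2 of both groups (11 kb). It was 109 kb away in shLUC replicate 1 and 269 kb in shHNRNPU replicate 1. The upstream 250 bases of these 3 genes are shown for that reason, 5′ to 3′ on the gene's strand (RefSeq, GRCh38.p14). Capitals mark AGGGGGC, the core of the CTCF motif, on either strand (GCCCCCT on the other). HOXA13 is at chr7:27200092-27200341 (minus strand), HOXD13 at chr2:176092471-176092720 (plus strand) and HOXB1 at chr17:48531012-48531261 (minus strand).
HOXA13: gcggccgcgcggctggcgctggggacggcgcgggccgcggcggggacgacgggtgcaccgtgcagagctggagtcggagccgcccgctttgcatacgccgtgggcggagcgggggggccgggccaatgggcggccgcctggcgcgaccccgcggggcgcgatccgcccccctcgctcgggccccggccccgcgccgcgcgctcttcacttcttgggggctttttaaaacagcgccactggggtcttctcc
HOXD13: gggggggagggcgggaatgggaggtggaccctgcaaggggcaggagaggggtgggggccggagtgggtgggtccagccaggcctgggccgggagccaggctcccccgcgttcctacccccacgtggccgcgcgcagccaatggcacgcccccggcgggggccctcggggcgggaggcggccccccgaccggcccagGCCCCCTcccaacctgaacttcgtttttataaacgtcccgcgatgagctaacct
HOXB1: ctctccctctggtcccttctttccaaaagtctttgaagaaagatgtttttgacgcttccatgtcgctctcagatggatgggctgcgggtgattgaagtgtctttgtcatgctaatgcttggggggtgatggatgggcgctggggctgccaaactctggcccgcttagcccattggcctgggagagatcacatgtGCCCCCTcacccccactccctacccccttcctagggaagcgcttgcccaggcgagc
The HOXD13 and HOXB1 windows held 1 copy of the core each and the HOXA13 window held 0. Of all 35116 listed upstream windows of this length 13.3% held the core. Among the 27 listed for HOX genes (20 of the 39 genes, some with several starts) 4 did, at HOXD13, HOXD8, HOXA3 and HOXB1. The GC content was 78% at HOXA13, 74% at HOXD13 and 57.2% at HOXB1, against a median of 58% over all windows.

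The clusters also carry microRNA genes, and some of these lay close to the borders described next. Their mature sequences are given with the seed (bases 2 to 8) in capitals.
hsa-miR-196b-5p: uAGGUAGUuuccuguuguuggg
hsa-miR-196a-5p: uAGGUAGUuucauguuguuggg
hsa-miR-10a-5p: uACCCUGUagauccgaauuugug
The first comes from MIR196B in HOXA (chromosome 7, 27169480 to 27169563, between HOXA9 and HOXA10). The second comes from MIR196A1 in HOXB (chromosome 17, 48632490 to 48632559, between HOXB9 and HOXB13) and MIR196A2 in HOXC (chromosome 12, 53991738 to 53991847). The third comes from MIR10A in HOXB (chromosome 17, 48579838 to 48579947, inside the annotated HOXB3). Both miR-196 forms share the seed AGGUAGU, and these microRNAs are known to repress HOX mRNAs.

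Borders were defined as the ends of domains, and a position is given as the last base of the interval on its low-coordinate side. Positions come in bins of 40 kb, so a border that differs by 1 bin between libraries is at the limit of what the lists resolve. Whether all positions are shifted by 1 bin against the genes was not tested, so distances below 1 bin describe the listed coordinates only. The 4 clusters differed in where borders fell. HOXA and HOXD had a border in the cluster or within 1 bin of it in all 4 libraries, HOXB in 3 of 4 and HOXC in 0 of 4. Over all gap-free stretches of the genome of the same length, moved along in steps of 1 bin so that neighbours overlap, 11.8% had such a border in all 4 libraries for the length of HOXA, 8.57% for HOXD and 18.5% for HOXB. For the length of HOXC, 55.6% had none in any library. The share with a border in 3 of 4 libraries, as seen at HOXB, is not given. In single libraries 31.3% to 37.8% of the stretches of the HOXB length had such a border.

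**Figure D1:**
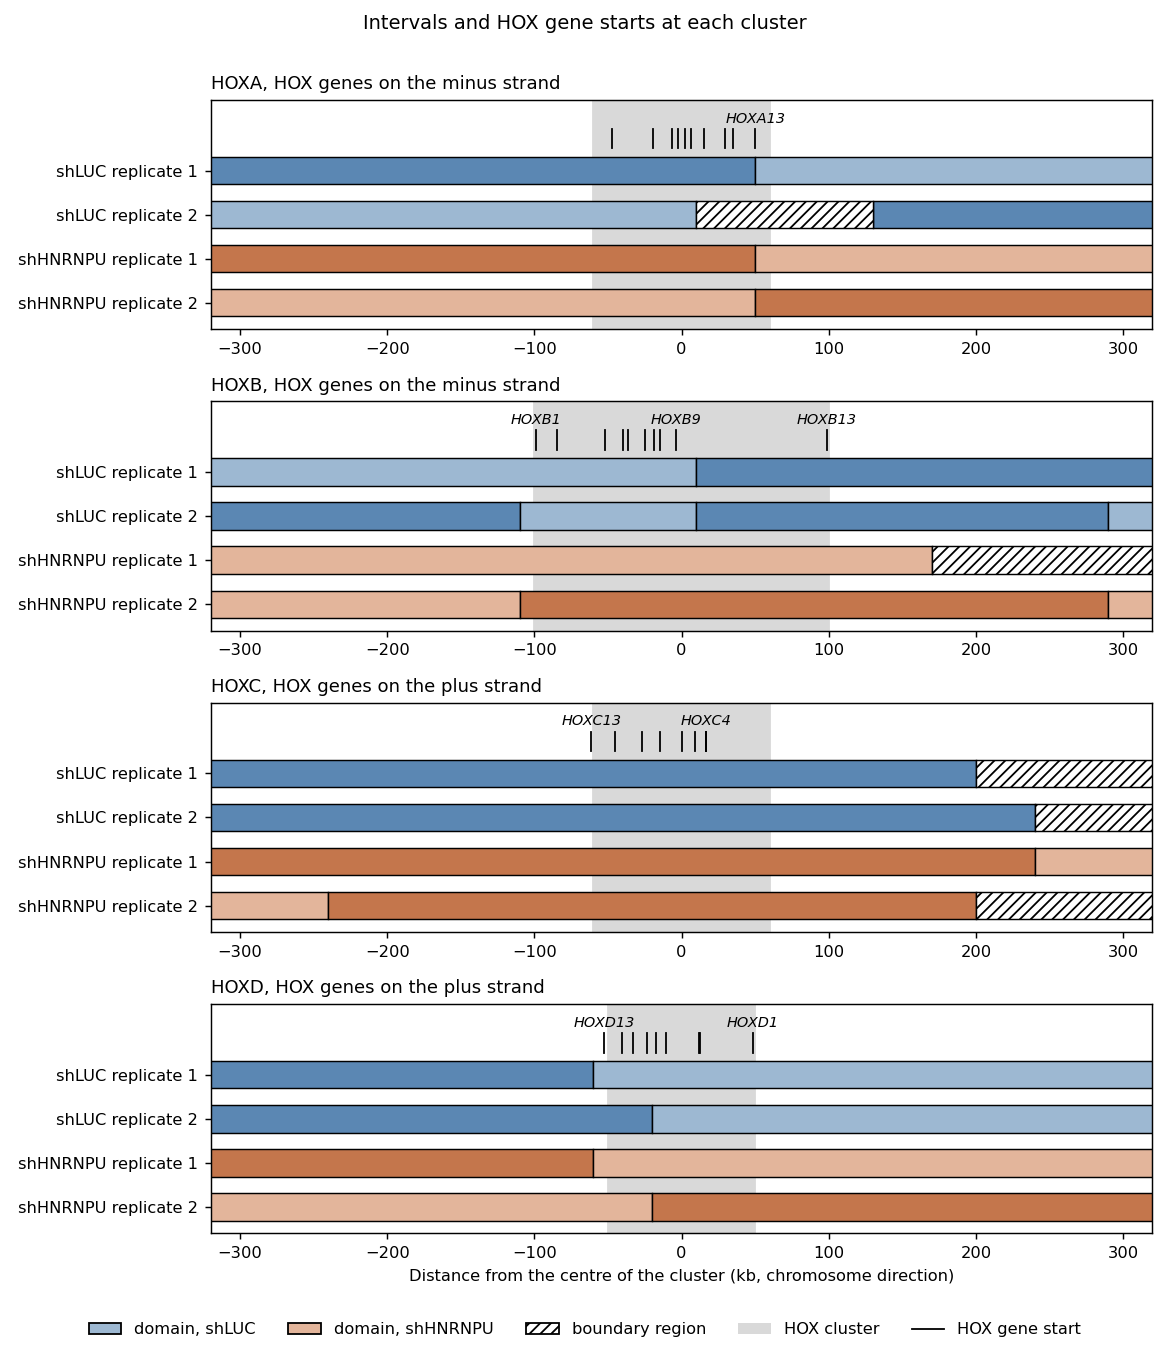
Intervals within 320 kb of the centre of each HOX cluster (horizontal axis, kb in the direction of the chromosome), 1 row per library, with domains in colour (neighbouring domains alternate in shade), boundary regions hatched, the cluster in grey and ticks at HOX gene starts. HOXA and HOXD have a border in or beside their posterior part in all 4 libraries, HOXB is split between HOXB9 and HOXB13 in both shLUC libraries only, and HOXC lies whole in 1 domain in every library.

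At HOXA, the border lay at the posterior end of the cluster. It was at 27200000 in shLUC replicate 1 and in both shHNRNPU libraries, which is inside the annotated HOXA13 (27194364 to 27200091) and 0.0905 kb from its start. HOXA13 is a posterior HOX gene required for the formation of the hand, foot and genital tract. In shLUC replicate 2 the same place was a boundary region from 27160001 to 27280000, which held the starts of HOXA9, HOXA10, HOXA11 and HOXA13, the MIR196B gene and EVX1 (27242802 to 27247830), an even-skipped homeobox gene. Its lower edge lay between HOXA7 and HOXA9, 1 bin below the border of the other libraries. The shLUC libraries thus differed from each other here, while shLUC replicate 1 and both shHNRNPU libraries had the same position.

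In shLUC replicate 1 and in both shHNRNPU libraries the domain on the anterior side held 10 of the 11 HOXA gene starts, all but HOXA13. The HOXA13 start passed the border by only 0.0905 kb, far less than a bin. The rest of that gene lay in the anterior domain. In shLUC replicate 2 the anterior domain held 7 starts, up to HOXA7. It was 520 kb long (26680001 to 27200000) in shLUC replicate 1, 360 kb (26800001 to 27160000) in shLUC replicate 2, 400 kb (26800001 to 27200000) in shHNRNPU replicate 1 and 520 kb (26680001 to 27200000) in replicate 2. In each library its far end lay in SKAP2, which encodes a Src-kinase-associated adaptor protein and is the nearest protein-coding gene on that side. The domain beyond HOXA13 reached into JAZF1, a zinc finger gene, in all 4 libraries. It was 920 kb long in replicate 1 of both groups, 880 kb in shHNRNPU replicate 2 and 840 kb in shLUC replicate 2, where it began at 27280001, past EVX1, and held HIBADH, an enzyme gene of valine breakdown, as its first protein-coding gene. In the 3 other libraries EVX1 lay in this domain, away from 10 of the 11 HOXA starts.

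At HOXD, a border lay near the posterior end in all 4 libraries, at 1 of 2 neighbouring bins. It was at 176080000 in shLUC replicate 1 and shHNRNPU replicate 1, inside EVX2 (176077472 to 176083962), the even-skipped homeobox gene next to HOXD13. It was at 176120000 in shLUC replicate 2 and shHNRNPU replicate 2, between HOXD10, which ends at 176119937, and HOXD9, which starts at 176122719. Each position therefore occurred once in each group. With the border at 176080000 all 9 HOXD starts were in the domain on the anterior side. With the border at 176120000 this domain held 5 (HOXD1, HOXD3, HOXD4, HOXD8 and HOXD9), and the 4 posterior genes HOXD10 to HOXD13 were in the domain on the other side with EVX2.

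The anterior HOXD domain ended in the stretch past MTX2 (176269442 to 176338025), which encodes a protein of the outer mitochondrial membrane and is the nearest protein-coding gene on that side. It spanned 560 kb in 3 libraries, and 520 kb in shHNRNPU replicate 2. Its far border was at 176640000 in 3 libraries and at 176680000 in shLUC replicate 2. The next domain, up to 177160000 in all 4 libraries, held 0 protein-coding genes. On the posterior side the domains varied more. They were 760 kb long (175320001 to 176080000) in shLUC replicate 1 and shHNRNPU replicate 1, with 2 protein-coding genes, EVX2 and LNPK, which encodes a protein of the endoplasmic reticulum. The posterior domain was 960 kb in shLUC replicate 2, starting in ATF2, a transcription factor gene, and 1680 kb in shHNRNPU replicate 2, starting in GPR155. The last was longer than 90.3% of the domains of its library.

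At HOXB, the border inside the cluster differed between the groups, but by the distance rule used for lost borders it was not a lost border. Both shLUC libraries had a border at 48640000, between HOXB9 (48621156 to 48626358) and HOXB13 (48724763 to 48728750). It put 9 of the 10 HOXB starts in 1 domain and HOXB13 in the next. HOXB13, the posterior gene of the cluster, is known for its role in the prostate and is set apart from HOXB9 by a long stretch with no other HOX gene. Neither shHNRNPU library had this border, and in both all 10 HOXB starts were in 1 domain. The nearest border was 160 kb away in shHNRNPU replicate 1 and 120 kb away in replicate 2. The latter distance is exactly the 3 bins within which a border may not lie for the call.

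The length of the domain that held HOXB1, the anterior gene, was 1000 kb in shLUC replicate 1 and 120 kb in shLUC replicate 2. It was 880 kb in shHNRNPU replicate 1 and 400 kb in replicate 2, so the spread within each group was wide and the groups overlapped. The 120 kb domain (48520001 to 48640000) held HOXB1 to HOXB9 and no other protein-coding gene, and only 1.45% of the domains of that library were shorter. A border at 48520000, outside HOXB1, was found in replicate 2 of both groups and in replicate 1 of neither. It lay 8526 bases from the low-coordinate end of HOXB1 and 74939 bases from the end of SKAP1, a T cell adaptor gene. In shLUC replicate 1 the HOXB1 domain ran instead from KPNB1, which encodes importin beta, and in shHNRNPU replicate 1 it ran from SP2, a transcription factor gene, to TTLL6, a tubulin-modifying enzyme gene beyond HOXB13. The microRNA gene MIR196A1, between HOXB9 and HOXB13, was 7.51 kb from a border in each shLUC library, against 168 kb in shHNRNPU replicate 1 and 112 kb in replicate 2. MIR10A, further towards HOXB1, was 60.2 and 59.8 kb from a border in shLUC replicates 1 and 2 and 220 and 59.8 kb in shHNRNPU replicates 1 and 2, so its groups overlapped.

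At HOXC, no library had a border in the cluster or within 1 bin of it, and all 9 HOXC starts, from HOXC4 to HOXC13, lay in 1 domain in each. This domain was 1120 kb long (53080001 to 54200000) in shLUC replicate 1, 1200 kb (53040001 to 54240000) in shLUC replicate 2 and shHNRNPU replicate 1, and 440 kb (53760001 to 54200000) in shHNRNPU replicate 2. It held 34, 38, 38 and 10 protein-coding genes in that order. In shHNRNPU replicate 2 these were the 9 HOXC genes and SMUG1, a uracil-DNA glycosylase gene, because a border at 53760000 separated the cluster from CALCOCO1 (53708517 to 53727452), its nearest protein-coding gene on the posterior side. That border was in no other library. In the other 3 libraries the domain began in or near EIF4B and IGFBP6, a translation factor gene and the gene of a growth factor binding protein.

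On the anterior side of HOXC the domain ended at 54200000 in shLUC replicate 1 and shHNRNPU replicate 2 and at 54240000 in shLUC replicate 2 and shHNRNPU replicate 1, near CBX5, which encodes the heterochromatin protein HP1 alpha. Past this border came boundary regions up to 54520000, except in shHNRNPU replicate 1. In that library the same stretch was called a 200 kb domain (54240001 to 54440000) and the start of the next domain. Further along, a border at 55160000 was at the same bin in all 4 libraries and lay between olfactory receptor genes. In shLUC replicate 2 a boundary region from 55080001 preceded it, whose lower edge at 55080000 was a border in no other library.

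**Figure D2:**
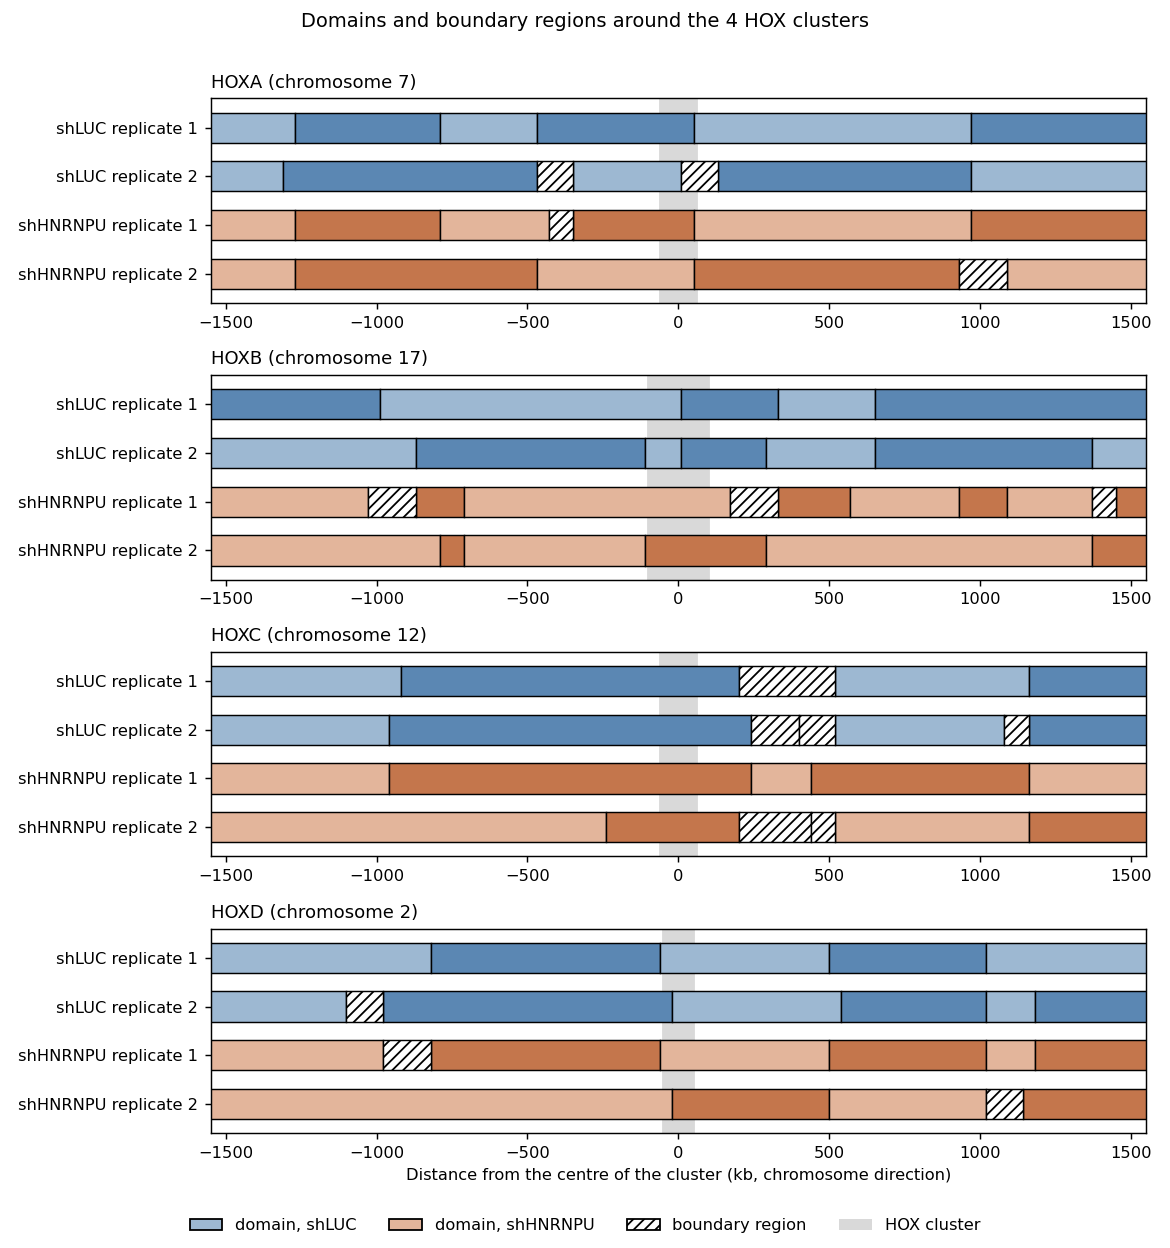
Domains (coloured, neighbours alternating in shade) and boundary regions (hatched) over the 4 windows, as distance from the centre of the cluster in kb along the chromosome, 1 row per library, with the cluster in grey. Of the border sites, 4 of 8 in HOXA, 2 of 7 in HOXC, 3 of 7 in HOXD and 1 of 15 in HOXB were found in all 4 libraries. No share over the genome is given for such sites.

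Over the whole windows, border positions within 1 bin of each other were merged to 37 sites. Of these, 10 were present in all 4 libraries, 4 in 3, 10 in 2 and 13 in 1. No share over the genome is given for such merged sites, so these counts cannot be set against a background. HOXA had 8 sites of which 4 were in all libraries, HOXC had 7 of which 2 were, and HOXD had 7 of which 3 were. HOXB had 15 sites and 1 was in all libraries, beyond HOXB13. That site was at 48920000 in UBE2Z (a ubiquitin-conjugating enzyme gene) or 48960000 in GIP (an incretin hormone gene). Of the 13 sites in a single library, 6 were in shHNRNPU replicate 1 and 5 of those were in the HOXB window. The HOXB and HOXC windows were rich in protein-coding genes (63 and 84) and the HOXA and HOXD windows poor (22 and 23), and their part in the number of sites was not tested.

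Borders were next called as kept, lost or gained. Both shLUC libraries shared 14 borders in the windows (matched within 1 bin), and 10 of these were within 1 bin of a border in both shHNRNPU libraries, against 62.5% of the 3322 shared shLUC borders of the genome. The kept borders were all 4 of HOXA, all 3 of HOXD, 2 of 4 in HOXC and 1 of 3 in HOXB. They included the borders at HOXA13 and at HOXD13. None of the 14 was lost (0 of 14, with no border of either shHNRNPU library within 3 bins), against 5.99% over the genome. Of the 13 borders that the shHNRNPU libraries shared, 1 was gained, against 2.94% over the genome. With so few borders in the windows, neither count stands apart from its background. A shorter distance changed the lost count: with absence required within 2 bins 1 of 14 was lost, against 7.50% over the genome, and within 1 bin 2 of 14 were, against 10.5%. The gained count stayed at 1 of 13 under both, against 4.13% and 6.69%.

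The gained border was in the HOXB window at 47920000, inside SP2, at the same bin in both shHNRNPU libraries. The nearest border was 280 kb away in shLUC replicate 1 and 160 kb away in shLUC replicate 2. It lies 610 kb from the HOXB cluster on the HOXB1 side. In shHNRNPU replicate 1 it was the start of the domain that held the whole HOXB cluster. A further border shared by both shLUC libraries, at 49280000 near ZNF652 on the other side of the cluster, was 80 kb from the nearest border in shHNRNPU replicate 1 and 360 kb in replicate 2.

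The distance from each HOX gene start (the end of the annotated gene on its 5′ side) to the nearest border shows how the border positions bear on single genes. Over the genome, the background was the 15842 of 20033 protein-coding genes with a listed start. Of these, 4.84% had a start within 1 bin of a border in all 4 libraries. All 39 HOX genes were counted, although only 20 have a listed promoter, so the 2 sets were not chosen alike. Among HOX genes 7 of 39 did: HOXA9, HOXA10 and HOXA11 in HOXA, and HOXD10, HOXD11, HOXD12 and HOXD13 in HOXD. These 7 genes share 2 borders, 1 per cluster, and are not independent of each other. None of the 10 HOXB or 9 HOXC genes did.

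**Figure D3:**
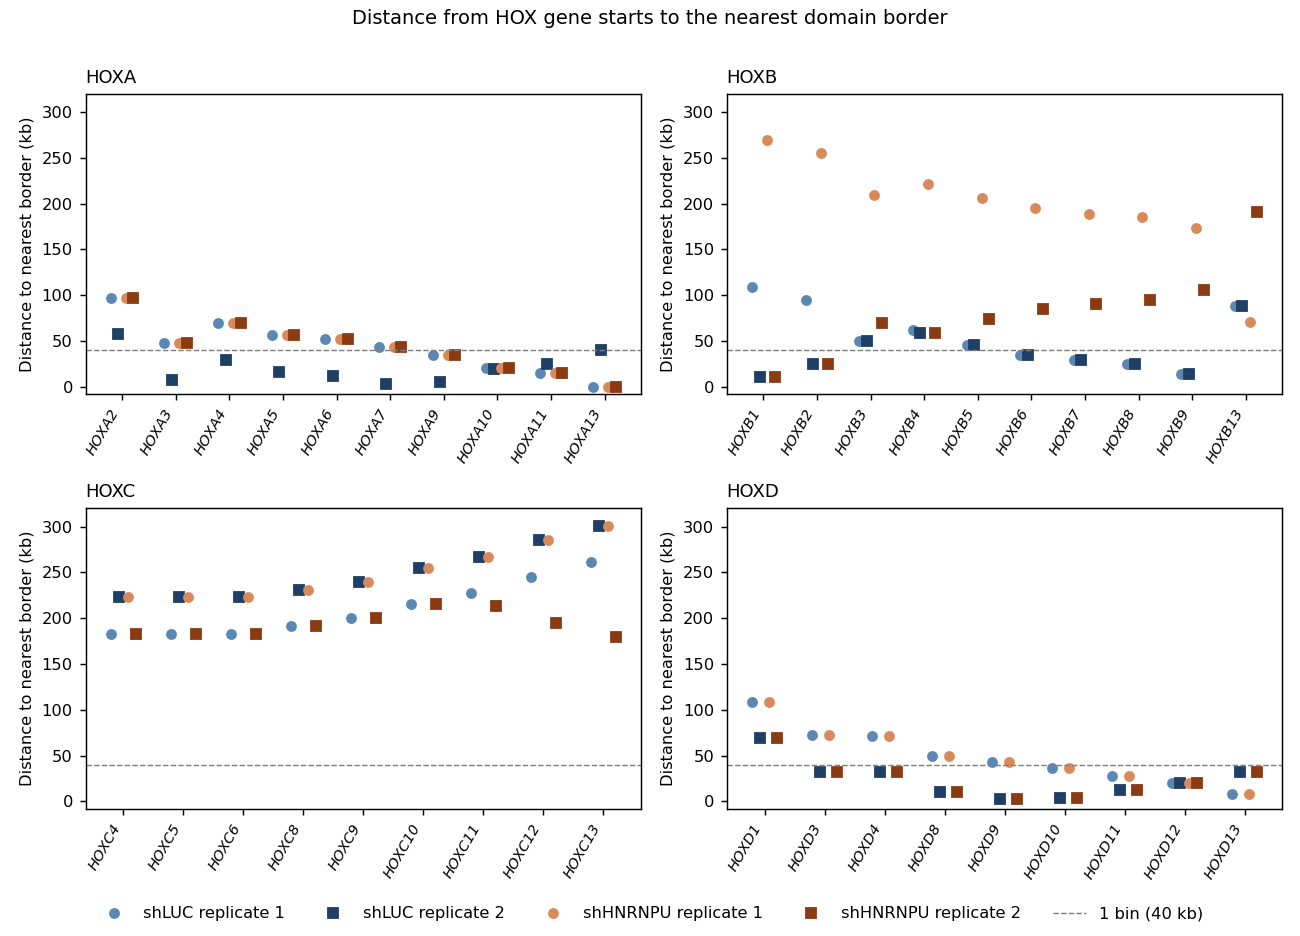
Distance in kb from the starts of the HOX genes on the horizontal axis to the nearest border (vertical axis), genes ordered from anterior to posterior, 1 point per library, with a dashed line at 1 bin (40 kb). The closest HOXA start to a border is HOXA13 in shLUC replicate 1 and both shHNRNPU libraries, and HOXA7 (3.33 kb) in shLUC replicate 2. In HOXD the closest is HOXD13 in replicate 1 and HOXD9 (2.72 kb) in replicate 2 of both groups. HOXC starts stay 179 kb or more away in all libraries, and the HOXB starts of shHNRNPU replicate 1 lie 71.3 to 269 kb away.

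HOXA13 was 0.0905 kb from the border in shLUC replicate 1 and both shHNRNPU libraries and 40.1 kb in shLUC replicate 2. HOXD13 was 7.49 kb away in replicate 1 and 32.5 kb in replicate 2 of both groups. RefSeq lists its promoter at a start further into the gene (176092721) than the outer end used here (176087487), which changes this distance by less than 1 bin. HOXD1 was 109 kb away in replicate 1 and 68.7 kb in replicate 2 of both groups.

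The HOXB genes varied most. HOXB9 was 13.6 kb from a border in each shLUC library, against 174 kb in shHNRNPU replicate 1 and 106 kb in replicate 2, so the groups did not overlap for this gene. The same order held for HOXB3 and HOXB5 to HOXB8, which share the 48640000 border with HOXB9. These 6 of the 39 HOX genes were farther from a border in both shHNRNPU libraries than in both shLUC libraries. Among the protein-coding genes with a listed start 13.4% were. Of the HOX genes 0 were closer in both, against 5.76% of that background. All 6 turn on the same border and count as 1 observation. The place of HOXB3 among them rests on its outer annotated end (48590241), as this gene spans HOXB4. HOXB4 was 61.7 and 58.3 kb away in shLUC replicates 1 and 2, and its groups overlapped. In shHNRNPU replicates 1 and 2 it was 222 and 58.3 kb away. HOXB1 was 109 kb away in shLUC replicate 1, 11 kb in shLUC replicate 2, 269 kb in shHNRNPU replicate 1 and 11 kb in its replicate 2, and its groups overlapped. HOXB13 was 88.7 kb away in each shLUC library. Its distances in shHNRNPU, 71.3 kb in replicate 1 and 191 kb in replicate 2, lay on either side of the shLUC value. In HOXC, the distances of HOXC4 were 183 kb in shLUC replicate 1 and shHNRNPU replicate 2 and 223 kb in shLUC replicate 2 and shHNRNPU replicate 1. HOXC5 and HOXC6 have the same annotated start (54016888) and so the same distances. HOXC13 was 261, 301, 301 and 179 kb away in shLUC replicates 1 and 2 and shHNRNPU replicates 1 and 2.

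The mean distance, taken within each cluster and then over the 4 clusters, was 90.6 kb in shLUC replicate 1, 84.3 kb in shLUC replicate 2, 136 kb in shHNRNPU replicate 1 and 86.8 kb in replicate 2. Averaged by group this was 87.5 ± 4.48 kb in shLUC and 111 ± 35 kb in shHNRNPU (SD, n = 2 each), a difference of 24 kb (exact two-sided permutation test, p = 0.667, Benjamini-Hochberg adjusted over 4 tests p = 1.000). The groups overlapped. Without shHNRNPU replicate 1 the difference was −0.708 kb, so that library carried it.

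Other measures gave 1 value per library over the 4 windows together. The number of borders was 18 in shLUC replicate 1, 23 in shLUC replicate 2, 26 in shHNRNPU replicate 1 and 18 in shHNRNPU replicate 2. The highest and the joint lowest count were thus both in shHNRNPU. The HOXB window of shHNRNPU replicate 1 had 10 borders, against 5, 6 and 5 in the other libraries. The means were 20.5 ± 3.54 borders in shLUC and 22 ± 5.66 in shHNRNPU (SD, n = 2 each), a difference of 1.5 borders (exact two-sided permutation test, p = 1.000, adjusted p = 1.000). The density was 1.44, 1.83, 2.07 and 1.44 borders per Mb in the windows, in the order shLUC replicates 1 and 2 and shHNRNPU replicates 1 and 2. Over all chromosomes it was 1.6, 1.6, 1.57 and 1.35 borders per Mb.

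**Figure D4:**
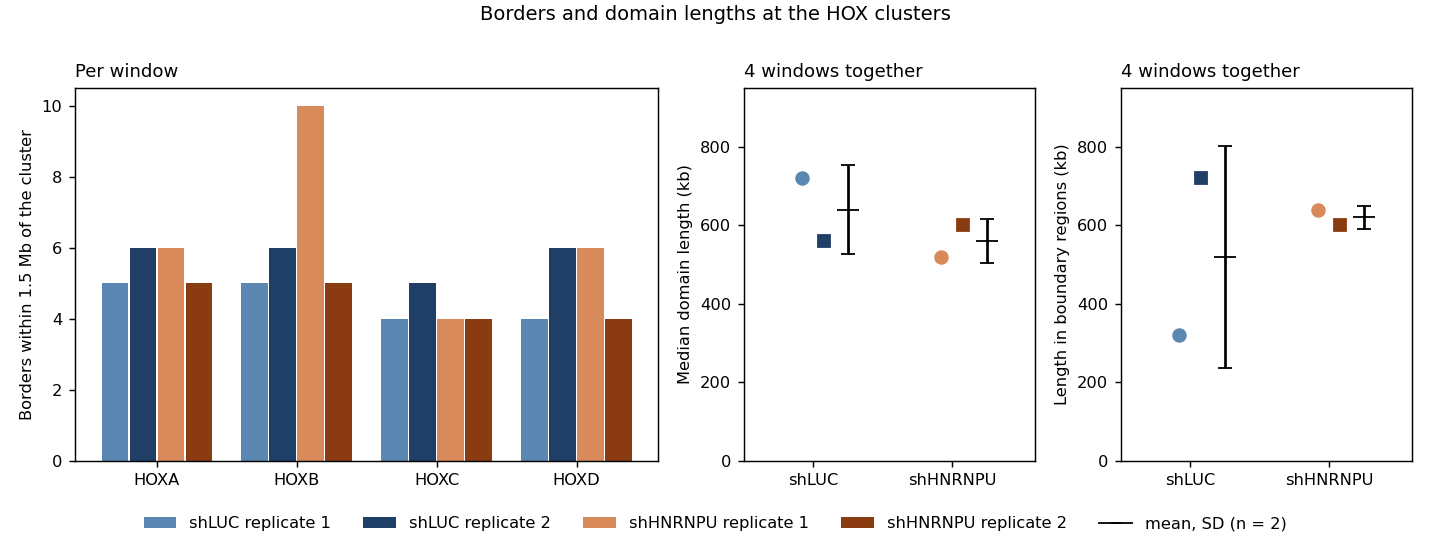
Left, number of borders in each window per library. Middle and right, median length of the domains that touch the 4 windows and total length in boundary regions (kb), with a point per library and the mean and SD (n = 2) beside them. The HOXB window of shHNRNPU replicate 1 has 10 borders, and the groups overlap in both measures on the right.

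The median length of domains touching the windows was 720 kb in shLUC replicate 1, 560 kb in shLUC replicate 2, 520 kb in shHNRNPU replicate 1 and 600 kb in replicate 2. This gave 640 ± 113 kb for shLUC and 560 ± 56.6 kb for shHNRNPU (SD, n = 2 each). The shHNRNPU mean was −80 kb from that of shLUC, less than the SD of shLUC (exact two-sided permutation test, p = 0.667, adjusted p = 1.000). The mean length in place of the median gave a difference of the opposite sign, 85.7 kb. The longest of these domains, 4360 kb (55160001 to 59520000), was in shHNRNPU replicate 2 at the edge of the HOXC window.

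The length outside domains, all of it in boundary regions, was 320 kb in shLUC replicate 1, 720 kb in shLUC replicate 2, 640 kb in shHNRNPU replicate 1 and 600 kb in replicate 2. The shHNRNPU values lay between those of shLUC. The means were 520 ± 283 kb in shLUC and 620 ± 28.3 kb in shHNRNPU (SD, n = 2 each), a difference of 100 kb (exact two-sided permutation test, p = 1.000, adjusted p = 1.000). Boundary regions took up 240 kb of the HOXA window in shLUC replicate 2, 400 kb of the HOXB window in shHNRNPU replicate 1 and 320 to 360 kb of the HOXC window in 3 libraries. In the HOXD window they took up 160 kb or less. The smallest p that 4 libraries can give in this test is 0.333, so no measure could pass the usual threshold.

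The libraries of the whole series held 3419 to 4018 domains, with a median length of 560 to 640 kb. Both the fewest domains and the longest median were in shHNRNPU replicate 2, which in the HOX windows had 19 domains, against 21 to 25 in the others.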

How the data were processed

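Hi-C was performed in 4 libraries of H1 hPSCs. The authors deposited 3 lists per library (domains, boundary regions and gaps), whose values are other than read counts: only a chromosome, start and end in bins of 40 kb, with no score. Per the submitters' processing notes, hg38 and Bowtie2 were used. The domain caller, its settings, the matrix normalization and the depth are not given in the sources used here, and each can move a border. The paper named for the series describes another experiment, and no method was taken from it.

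The intervals of each library left no break or overlap, and all 24 chromosomes reached past their last RefSeq gene (GRCh38.p14). They ended 43.8 kb (chromosome 11) to 165 kb (chromosome 7) past it, more than 1 bin on every chromosome. The ends were not compared with the chromosome lengths of hg38. Whether all positions are shifted by 1 bin was therefore not tested. In each library more gene starts fell in the bins beside a border (0.596 to 0.706 per bin) than 10 bins away (0.442 to 0.524), so gene coordinates were used as they are. Borders were domain ends, matched one to one within 1 bin; a lost or gained border, shared by both libraries of a group, had none within 3 bins in the other group. Groups came from the sample titles. Group means were compared by exact permutation of the 4 libraries. Named were the members HOXA13, HOXB1, HOXB13, HOXC4, HOXC13, HOXD1 and HOXD13, the HOX genes beside a border, the nearest protein-coding genes outside each cluster and genes at the far ends of its domains. ZNF652 was named after its values were seen. Members, lists and tests were chosen with earlier results of these data known. The values of 1 gene are not reported here. The calling of lost and gained borders from such lists, not the authors' domain calls, was tested on simulated data. The planted borders stood far from other borders and moved by at most 1 bin. Cases with a neighbour a few bins away, such as the HOXB border at 48640000, were therefore not simulated. Python 3.11.15, numpy 2.4.6, pandas 2.3.3 and matplotlib 3.10.9 were used.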

Additional observations from a re-analysis of the deposited data

How the results depend on the processing

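The comparisons of groups turned on single libraries. Leaving out each library in turn, the difference in borders was −2.5 to 5.5, in median domain length −160 to 0 kb, in length outside domains −100 to 300 kb and in mean distance −0.708 to 48.7 kb. The difference in borders turned sign without shLUC replicate 1 (−1) or shHNRNPU replicate 1 (−2.5), that in length outside domains without shLUC replicate 1 (−100 kb) and that in distance without shHNRNPU replicate 1 (−0.708 kb). The median difference was 0 kb without shLUC replicate 1, and mean length gave 85.7 kb. Windows of 1 or 2 Mb, boundary regions alone, cluster midpoints, domains wholly inside a window and leaving out domains of 1 or 2 bins kept the direction but not always the size. The groups did not overlap (exact permutation p = 0.333, the smallest possible) for median length in 1 Mb windows (−140 kb) or over domains wholly inside (−100 kb), nor for distance from cluster midpoints (37.5 kb). In 2 Mb windows the median difference was −30 kb. Length outside domains differed by 65 kb in 1 Mb and 20 kb in 2 Mb windows. The replicate block, a sign-flip over the pairs of equal replicate number, whose smallest p is 0.5, kept the differences at 1.5 borders, −80 kb, 100 kb and 24 kb (exact p = 1.000, 1.000, 1.000 and 0.5). The labels do not say what the number stands for.

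Lost borders were 2 of 14 when a border had to be absent within 1 bin (10.5% over the genome) and 1 of 14 when it had to be absent within 2 bins (7.50% over the genome), a setting added after seeing the data. The latter was the border between HOXB9 and HOXB13. Leaving out each library, lost borders in the windows were 0 to 2, gained borders 1 to 3 and kept borders 10 to 12. Matching at the same bin left 2 kept borders, so 1-bin shifts were common in the windows. For these settings neither the number of borders tested nor the share over the genome is given. The counts therefore cannot be set against a background. Libraries with a border strictly inside the cluster were 2 for HOXB and 2 for HOXD, and within 2 bins of it 4 for HOXB. Among gap-free stretches of the HOXB length, 23.2% to 28.2% in a library had a border strictly inside. For the HOXD length it was 9.87% to 11.9%. No such share is given for borders within 2 bins. A bin of 40 kb, unknown depth and 2 libraries a group limit all of this: a shift by 1 bin cannot be told from no shift.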

Other observations

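Borders at exactly the same bin were no more common within a group than between groups in the HOX windows. The shLUC libraries shared 7 of these borders and the shHNRNPU libraries 7, whereas pairs of 1 library from each group shared 8 to 10. Over all chromosomes the shLUC pair shared 26.2% of the borders found in either library, the shHNRNPU pair 21.9% and the pairs across groups 21.1% to 25.4%.

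At HOXD the 2 border positions followed the replicate number: 176080000 in replicate 1 and 176120000 in replicate 2 of both groups. The border outside HOXB1 at 48520000 was likewise in replicate 2 of both groups. Past HOXB13 a border was at 48960000 in replicate 1 and at 48920000 in replicate 2 of both groups. Of the other sites found in 2 libraries, those at 26360000, 47600000 to 47640000 and 175320000 were in replicate 1 of both groups. Those at 26800000, 47760000 and 175160000 were in shLUC replicate 2 and shHNRNPU replicate 1. Those at 47920000, 48640000 and 49280000 followed the group. At HOXC the positions 54200000 and 54240000 did not follow the number. Nor did those of the border inside HOXA, where shLUC replicate 2 stood alone. Among other sites found in all 4 libraries, 25840000 and 176680000 were in shLUC replicate 2 alone, 1 bin from the others. Likewise 26720000 was in shHNRNPU replicate 1 alone and 28080000 in shHNRNPU replicate 2 alone. A shift by 1 bin cannot be told from no shift, and no share over the genome is given for these patterns.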
